A study of Mus musculus with 16 samples.

Results

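The genes described here encode the Rab GTPases and the EHD endocytic recycling proteins in cultured mouse cortical neurons. Symbols of the form Rab plus a number, with up to 1 letter and 1 further digit, and Ehd1 to Ehd4 were taken from the raw count table where at least 10 counts were present in at least 4 libraries. The rule found 55 of 16934 genes, 51 of 56 Rab symbols and 4 of 4 Ehd symbols. Of these, 54 were among the 13139 genes tested, and Rab20, an endosomal Rab of phagocytes, was not. The members just inside the rule were Rab20 and Rab39, each with 10 counts in 4 libraries, followed by Rab30 and Ehd2 in 7. Just outside were Rab27a and Rab38 (2 libraries each), Rab42 and Rab44 (1 each), and Rab19, which had a count of 0 in every library.

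Primary cortical neurons from C57BL/6 mouse embryos of embryonic day 15 to 16 had been grown for 14 days. In 2 groups the neurons had taken up fibrils of α-synuclein, the presynaptic protein that aggregates in Parkinson's disease, labelled with the dye Atto488 and given at 0.1 µM over 16 h, and control neurons were left untreated. After washing, each kind was kept alone or with microglia, the brain's own macrophages, for 6 h. This gave 4 groups of 4 libraries, called here untreated or loaded neurons alone and untreated or loaded co-cultures, with no genetic change in any. The series title names tunnelling nanotubes and the care of neurons by microglia as its subject. The labels call every library neurons and do not state how the cell types were separated before RNA isolation. They name no separate cultures or animals either, so the p-values rest on the spread among the libraries alone, and this spread may be technical.

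Rab proteins are small GTPases that sit on membranes when bound to GTP and recruit effectors, which move, tether and fuse vesicles. Exchange factors switch them on, GTPase-activating proteins switch them off, and each Rab tends to mark 1 or a few compartments. EHD proteins are ATPases that bind and reshape membrane tubules and return internalised receptors from endosomes to the cell surface. In neurons Rab3 proteins act on synaptic vesicles, Rab6 proteins on traffic around the Golgi, and Rab5, Rab11 and Ehd1 on endosomes, while several Rabs are substrates of Lrrk2, a kinase linked to Parkinson's disease.

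Ehd1, the member with the smallest p for fibrils, had no promoter entry in the sources used here. Promoter sequences are shown for other genes named in the comparisons below: Rab6b, Rab6a and Ehd2 for microglia, and Rab5c and Rab8a for fibrils. Each runs 5′ to 3′ on the gene's strand from 250 bases before to 50 bases after the transcript start, from RefSeq on GRCm38.p6, at chr9:103111824-103112123 (+), chr7:100607336-100607635 (+), chr7:15967486-15967785 (-), chr11:100738166-100738465 (-) and chr8:72160950-72161249 (+) in that order. Capitals mark matches, on either strand, to the CCAAT box (CCAAT or ATTGG), the GC box (GGGCGG or CCGCCC), the E-box CACGTG and the cAMP response motif TGACGTNA, none of which overlaps another in these windows.
Rab6b: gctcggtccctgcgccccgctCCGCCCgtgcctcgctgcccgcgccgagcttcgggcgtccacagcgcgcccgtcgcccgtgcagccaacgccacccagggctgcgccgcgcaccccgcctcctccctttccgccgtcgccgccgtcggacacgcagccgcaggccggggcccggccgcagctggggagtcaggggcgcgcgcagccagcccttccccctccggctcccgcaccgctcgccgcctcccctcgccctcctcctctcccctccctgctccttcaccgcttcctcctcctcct
Rab6a: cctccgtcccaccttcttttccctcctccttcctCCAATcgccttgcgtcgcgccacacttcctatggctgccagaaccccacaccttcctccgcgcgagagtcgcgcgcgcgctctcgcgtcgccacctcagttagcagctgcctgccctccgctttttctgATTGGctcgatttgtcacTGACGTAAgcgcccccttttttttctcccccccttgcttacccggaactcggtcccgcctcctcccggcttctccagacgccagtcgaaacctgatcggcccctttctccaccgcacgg
Ehd2: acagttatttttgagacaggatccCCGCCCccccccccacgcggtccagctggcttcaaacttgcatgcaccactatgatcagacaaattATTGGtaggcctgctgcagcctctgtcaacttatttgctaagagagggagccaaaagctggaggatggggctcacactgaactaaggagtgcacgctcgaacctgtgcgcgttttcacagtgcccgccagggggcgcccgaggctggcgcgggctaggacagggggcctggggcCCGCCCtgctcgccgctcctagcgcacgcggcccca
Rab5c: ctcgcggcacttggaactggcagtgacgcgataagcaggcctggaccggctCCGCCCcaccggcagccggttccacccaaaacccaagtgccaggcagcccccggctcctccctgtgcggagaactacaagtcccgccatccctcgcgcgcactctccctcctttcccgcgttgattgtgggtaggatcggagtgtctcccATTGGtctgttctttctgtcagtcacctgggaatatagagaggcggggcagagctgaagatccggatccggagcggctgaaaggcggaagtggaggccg
Rab8a: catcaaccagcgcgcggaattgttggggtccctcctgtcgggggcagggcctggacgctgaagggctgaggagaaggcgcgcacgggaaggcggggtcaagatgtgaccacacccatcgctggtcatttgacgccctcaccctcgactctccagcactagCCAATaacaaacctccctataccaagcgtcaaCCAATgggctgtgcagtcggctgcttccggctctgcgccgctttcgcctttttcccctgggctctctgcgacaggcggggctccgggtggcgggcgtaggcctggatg
The paralogues Rab6b and Rab6a differed in these windows: Rab6b held 1 GC box and no CCAAT at 78.7% G and C, and Rab6a held 2 CCAAT boxes and 1 TGACGTNA at 62.7%. Ehd2 held 1 CCAAT and 2 GC boxes at 62%, Rab5c 1 of each at 63.3%, and Rab8a 2 CCAAT boxes and no GC box at 64%. Across all members with an entry, 57 promoters of 46 genes, 73.7% held GGGCGG and 45.6% CCAAT, and the median G and C content was 62.7%. Among all 32851 promoters of this length the shares were 35.7% and 37.4% and the median 52.7%. CACGTG stood in 8.77% of member promoters and 7.15% of all, and TGACGTNA in 7.02% and 2.93%. A match describes letters in this window and was not tested as a binding site.

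The members lie on 18 chromosomes (GENCODE M21, GRCm38). Ehd1 is at chr19:6276725-6300096 (+), Ehd2 at chr7:15946958-15967567 (-), Ehd3 at chr17:73804134-73832094 (+) and Ehd4 at chr2:120089175-120154606 (-). Rab6b is at chr9:103111787-103185276 (+), Rab6a at chr7:100607410-100641268 (+), Rab3a at chr8:70754679-70758677 (+), Rab5c at chr11:100715009-100738215 (-) and Rab8a at chr8:72161200-72183904 (+). Exons of 16 members overlap an exon of another gene, 4 of them on the same strand. In 7 members the overlap reaches the last 500 bases, where 3′ libraries read: Rab10, Rab3a, Rab4b, Rab5a, Rab3b, Rab43 and Rab26. Rab3a and Rab5a overlap genes on the opposite strand (Mpv17l2 and Pp2d1), and Rab26, Rab4b and Rab43 genes on the same strand (Traf7, Gm21983 and Gm45140). The strand setting of the counting is not given in the sources used here, so reads of these 7 members and their neighbours cannot be told apart.

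Libraries held 6511516 to 13986374 counts, and 10817 to 13079 genes were detected in each. The members took 27523 to 92799 counts per library, which bounds counting error only. The spread between libraries of a group was wide, with a biological coefficient of variation of 1.17 over all genes tested. Neuronal identity transcripts (14 genes such as Tubb3 and Snap25, none at 0 in every library of any group) summed to 3235 to 7755 CPM (counts scaled to a common library size by TMM) in untreated neurons alone, 1414 to 7673 in loaded neurons alone, 1096 to 2973 in untreated co-cultures and 1186 to 1971 in loaded co-cultures. Oligodendrocyte-lineage transcripts summed to 1141 to 3145 CPM in the 8 libraries of neurons alone and 4323 to 10348 CPM in the 8 co-cultures. The 16 microglial transcripts summed to 698 and 1432 CPM in replicate 1 of the untreated and of the loaded co-cultures, and to 15.3 to 85.2 CPM in the other 14 libraries. The microglial markers P2ry12 and Tmem119 were at 0 in all 16.

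Expression of the family was concentrated in a few Rabs. Rab10, which acts in exocytosis and membrane delivery, averaged 558 CPM over the 16 libraries, Rab5c, a Rab of early endosomes, 549 CPM, Rab6a 520 CPM, Rab14, which acts between endosomes and the Golgi, 385 CPM, and Rab6b, the brain-enriched Rab6, 343 CPM. These 5 carried 44.3% of all member CPM. The 3′ counts do not scale with transcript length, so these levels compare genes per transcript. There were 18 members at 100 CPM or more, which held 82.3% of the total, 24 from 10 to 100 CPM and 13 under 10 CPM. Low members were poorly measured: the median SD of log2 CPM within a group was 0.53 in the first class, 1.19 in the second and 2.30 in the third, and 83 of the 880 member entries were 0. Of the 13 lowest members 1, Rab33a, was detected in all 16 libraries.

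**Figure D1:**
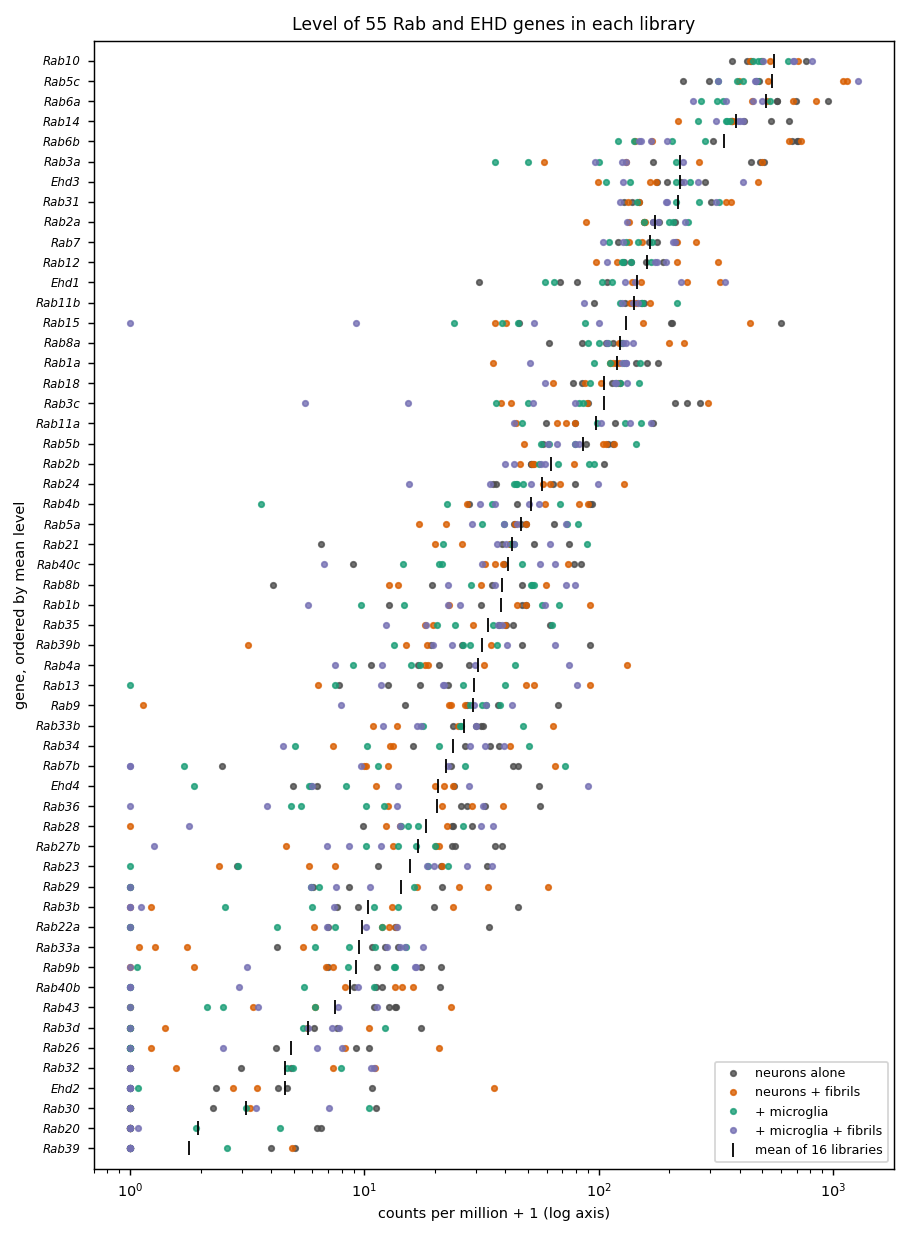
Level of each of the 55 members, as CPM plus 1 on a log axis, with 1 point per library, the 4 groups in different colours, and a black tick at the mean of the 16 libraries, which orders the members. Rab10, Rab5c, Rab6a, Rab14 and Rab6b lead, and points spread more widely toward the low end of the order.

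Summed over the 55 members, the level was 6029 ± 550 CPM in untreated neurons alone, 5895 ± 763 CPM in loaded neurons alone, 4357 ± 334 CPM in untreated co-cultures and 4986 ± 358 CPM in loaded co-cultures (SD, n = 4 each). The 4 untreated co-cultures, at 3881 to 4659 CPM, lay below the 4 libraries of untreated neurons alone, at 5552 to 6812 CPM. This was not a fall of every member. Of the 5 most abundant, Rab6a (mean 699 to 367 CPM), Rab6b (596 to 187 CPM) and Rab14 (494 to 332 CPM) were lower in untreated co-cultures. Rab10 (503 to 516 CPM) and Rab5c (369 to 399 CPM) were not. Loaded libraries overlapped, at 5084 to 6676 CPM alone and 4540 to 5296 CPM in co-culture.

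Rab6b fell with microglia. It recruits motor proteins to Golgi-derived and other vesicles in neurons. Its level was 307, 668, 701 and 707 CPM in the 4 libraries of untreated neurons alone and 142, 169, 649 and 732 CPM in loaded neurons alone. In co-culture it was 141, 204, 285 and 120 CPM without fibrils and 147, 150, 166 and 194 CPM with them (replicates 1 to 4 throughout). The untreated groups did not overlap. In loaded neurons alone, replicates 1 and 2 sat at the co-culture level and replicates 3 and 4 far above it. Averaged over fibril state, an average defined with earlier results of these data known, the log2 change was -1.52 ± 0.32 (SE; edgeR's quasi-likelihood test, Benjamini-Hochberg adjusted p = 0.0129). It was -1.67 ± 0.45 without fibrils (adjusted p = 0.181) and -1.36 ± 0.45 with fibrils (adjusted p = 0.255), and those contrasts share no library.

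Neuronal transcripts broadly moved with Rab6b, though not always in the same order of libraries. In untreated neurons alone replicate 1, the lowest for Rab6b, had the lowest neuronal sum, 3235 CPM against 6380 to 7755 CPM in the others. In loaded neurons alone the replicates at 142 and 169 CPM of Rab6b had neuronal sums of 1860 and 1414 CPM, and those at 649 and 732 CPM had 3683 and 7673 CPM. In untreated co-cultures the neuronal sums of 1263, 2557, 2973 and 1096 CPM had the same order as Rab6b. In loaded co-cultures, at 1504, 1186, 1971 and 1801 CPM, they did not. Summed astrocyte markers ran the other way among neurons alone. They were at 8197 CPM in untreated replicate 1, against 2666 to 3134 CPM in the other untreated replicates, and at 8409 and 8593 CPM in loaded replicates 1 and 2, against 4257 and 3792 CPM in loaded replicates 3 and 4. In untreated co-cultures the library lowest for Rab6b, replicate 4, had the highest astrocyte sum, 7386 CPM, while in loaded co-cultures the library highest for Rab6b, also replicate 4, had the highest, 4356 CPM. The part of either marker sum in the fall of Rab6b was not tested, and in bulk libraries fewer neurons and less RNA per neuron cannot be told apart. Without replicate 1 of both co-culture groups, the libraries rich in microglial transcripts, the change was -1.43 ± 0.37 (adjusted p = 0.0690).

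Rab6a, the ubiquitous paralogue that acts in traffic within the Golgi and from it to the endoplasmic reticulum, was at 577, 693, 576 and 949 CPM in untreated neurons alone and 676, 452, 522 and 850 CPM in loaded neurons alone. In co-culture it was at 318, 272, 538 and 340 CPM without fibrils and 252, 498, 456 and 350 CPM with them. The untreated groups did not overlap, and the loaded groups did. The averaged change of -0.81 ± 0.22 narrowly missed the threshold (edgeR adjusted p = 0.0521). Without fibrils it was -0.93 ± 0.31 (adjusted p = 0.345) and with fibrils -0.68 ± 0.31 (adjusted p = 0.389).

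**Figure D2:**
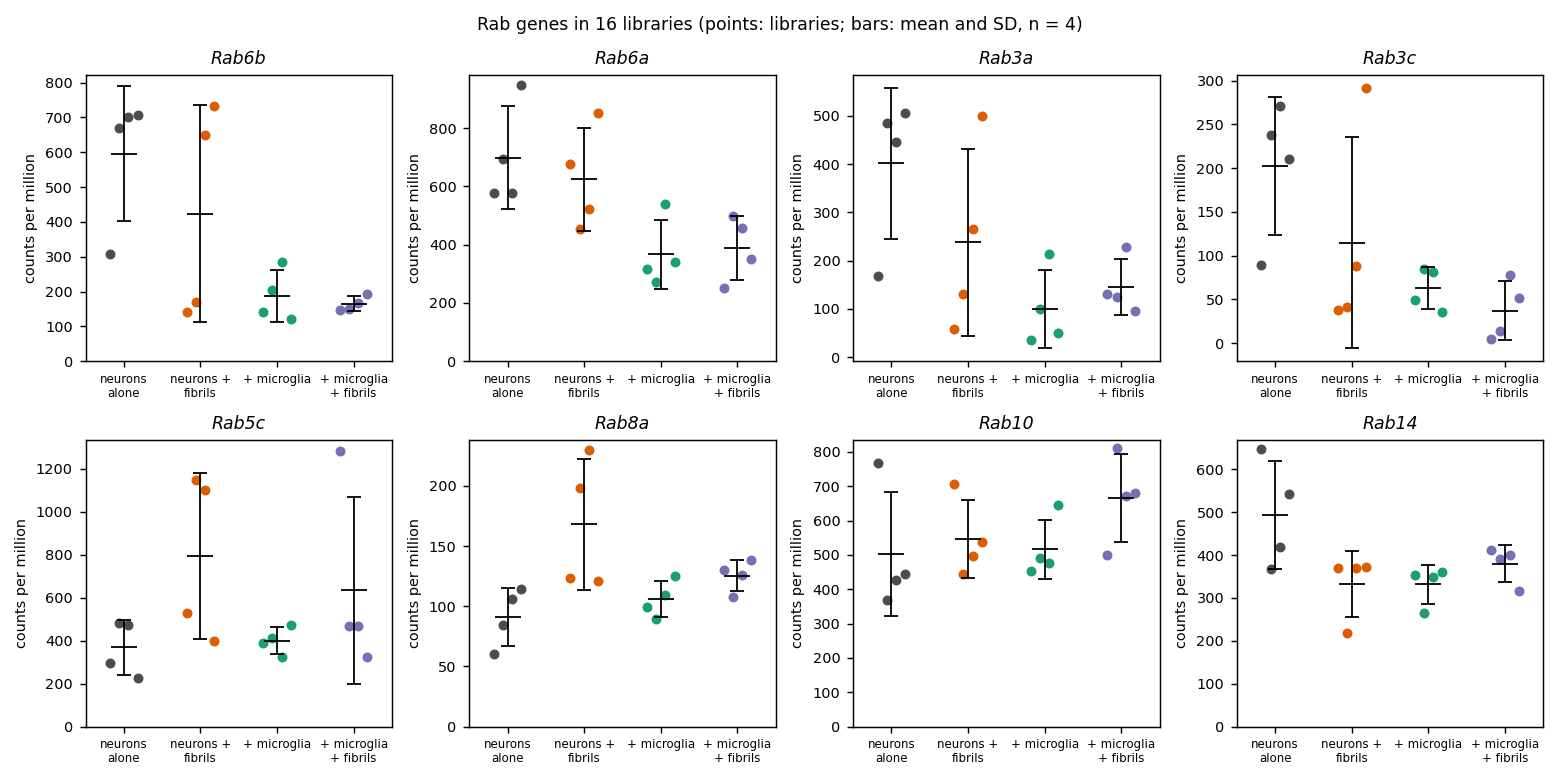
CPM of 8 Rab genes per library (points), with the group mean and SD (bars), in the 4 groups. Rab6b, Rab6a, Rab3c and Rab14 are lower in the untreated co-cultures than in any library of untreated neurons alone, while Rab3a, Rab5c, Rab8a and Rab10 overlap there.

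Ehd2, the EHD protein of caveolae at the plasma membrane, was at or near 0 in the co-cultures. Its level was 3.28, 3.70, 9.77 and 1.32 CPM in untreated neurons alone and 2.49, 1.76, 34.7 and 0 CPM in loaded neurons alone. A single count (0.0793 CPM) in replicate 1 of the untreated co-cultures was the only one among the 8 co-cultures. Together the libraries of neurons alone held 443 counts, a ratio of 485 after scaling by library size (95% interval for counting error alone 86.6 to 19204). Of the 443, 254 came from replicate 3 of the loaded neurons alone. The edgeR adjusted p for the averaged microglia contrast was 0.0390, and 0.0741 with a replicate block, which ended the call. All 7 libraries in which Ehd2 had at least 10 counts were neurons alone, so it entered the rule and the test through those libraries only, and its lower level in co-culture is bound up with that filter. Against the floor of 3 counts per library, the mean of Ehd2 was at least 29.2-fold lower in loaded co-cultures than in loaded neurons alone (edgeR adjusted p = 0.239 for that contrast). That mean rested mostly on replicate 3, at 34.7 CPM against 0 to 2.49 CPM in the others. The bound covers counting error only and not this spread. Leaving out 1 library at a time ended the averaged call in 12 of 16 cases: replicates 2, 3 and 4 of the untreated neurons alone, replicate 3 of the loaded neurons alone (adjusted p = 0.102 without it) and each of the 8 co-cultures.

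Across the family, 2 of 54 members were called in the averaged microglia contrast, 3.70%, against 2.19% of all genes tested (288 of 13139), so the share was near the background. They were Rab6b and Ehd2, and Ehd2 passed the filter on low counts only through neurons alone. Both were lower, as were 0.974% of all genes. At an unadjusted p under 0.05 there were 8 members (14.8%), all lower: Rab6b, Ehd2, Rab6a, Rab3a, Rab3c, Rab26, Rab15 and Rab36. Among all genes 16.5% had such a p in either direction, and 8.79% were lower. No member separated the 8 co-cultures from the 8 libraries of neurons alone, which 0.601% of all genes did. The median log2 change of the members was -0.18, with 20 higher and 34 lower, and that of all genes was -0.03.

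The contrast of untreated co-cultures with untreated neurons alone called 0 members, against 0.122% of all genes. An unadjusted p under 0.05 was reached by 8 members (14.8%), against 9.10% of all genes. All 8 were lower, against 4.51% of all genes, and they were Rab6b, Rab3a, Rab6a, Rab26, Ehd2, Rab3c, Ehd4 and Rab14. The groups did not overlap for 8 members (14.8%), against 7.58% of all genes. These were Rab6b, Rab6a, Ehd2, Rab14, Rab27b, Rab3c, Rab36 and Rab43, and each was lower in co-culture, as 3.81% of all genes were. Ehd2 is in both sets, but it entered the rule only through neurons alone, so its place there is bound up with that filter. The median was -0.30 for members (18 higher and 36 lower) and -0.02 for all genes. With fibrils, 0 members were called against 0.114% of all genes. Here 5 members (9.26%) had an unadjusted p under 0.05, against 11.7% of all genes, and the groups did not overlap for 2 (3.70%), 1 higher and 1 lower, against 6.32% of all genes (3.41% higher and 2.91% lower).

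Those 2 were Rab33a, a Rab of the Golgi and of growing axons, and Rab29, a Golgi Rab linked to Lrrk2. Rab33a was at 0.746, 4.45, 0.274 and 0.0959 CPM in loaded neurons alone and at 13.2, 11.5, 16.9 and 13.9 CPM in loaded co-cultures. In untreated neurons it was at 3.23 to 13.0 CPM alone and 5.15 to 14.0 CPM in co-culture, so replicates 1, 3 and 4 of the loaded neurons alone lay below every other library (log2 change with microglia in loaded neurons 3.30 ± 1.51, adjusted p = 0.395). Rab29 was at 59.9, 24.5, 32.8 and 15.8 CPM in loaded neurons alone and at 9.62, 0, 6.55 and 4.92 CPM in loaded co-cultures, and its untreated libraries lay between 0 and 20.4 CPM (log2 change -2.66 ± 1.63, adjusted p = 0.584). Neither passed the test.

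The microglia contrasts with and without fibrils share no library. Of the 54 members 33 (61.1%) had the same direction in both, against 63.8% of all genes, 24 lower in both and 9 higher in both. Ehd2, Rab3c, Rab6a and Rab6b had an unadjusted p under 0.05 and the same direction in both (7.41%, against 3.11% of all genes). Of these, Ehd2 entered the rule only through neurons alone, so its lower level in both is bound up with that filter.

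Among the Rabs of regulated secretion, all 6 tested were lower on average with microglia, none called, with a median of -1.51. Rab3a, the main synaptic vesicle Rab, was at 169, 486, 447 and 506 CPM in untreated neurons alone and 57.3, 131, 266 and 499 CPM in loaded neurons alone. It was at 35.2, 99.0, 213 and 48.9 CPM in untreated co-cultures and 130, 125, 229 and 95.7 CPM in loaded ones, so groups overlapped (averaged change -1.37 ± 0.43, edgeR adjusted p = 0.108). Rab3c, another synaptic vesicle Rab, was at 202 ± 79.1 and 115 ± 120 CPM in neurons alone without and with fibrils and at 62.7 ± 24.2 and 37.2 ± 34.1 CPM in co-culture (SD, n = 4 each; averaged change -1.66 ± 0.53, adjusted p = 0.117). Summed, the list was at 666 ± 234 and 386 ± 326 CPM in neurons alone without and with fibrils and at 187 ± 99.3 and 198 ± 85.0 CPM in the co-cultures (SD, n = 4 each). Rab27b, a Rab of secretory granules and exosome release, was at 22.7 to 37.8 CPM in untreated neurons alone, above the 9.12 to 19.0 CPM of untreated co-cultures and the 3.63 to 19.8 CPM of loaded neurons alone. As for Rab6b, these sums broadly moved with the neuronal transcripts given above, and their part was not tested.

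Rab26, which sits on synaptic vesicles and links them to autophagy, was at 8.20, 9.47, 3.21 and 0 CPM in untreated neurons alone and at 0 in all 4 untreated co-cultures, at least 17.0-fold lower against the floor of 3 counts per library. It was at 19.9, 0.234, 0 and 7.29 CPM in loaded neurons alone and at 0, 5.28, 7.05 and 1.49 CPM in loaded co-cultures. It therefore was at 0 in 7 of 16 libraries, and its last bases overlap an exon of Traf7. The edgeR adjusted p of Rab26 was 0.396 without fibrils and 0.177 for the averaged microglia contrast.

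**Figure D3:**
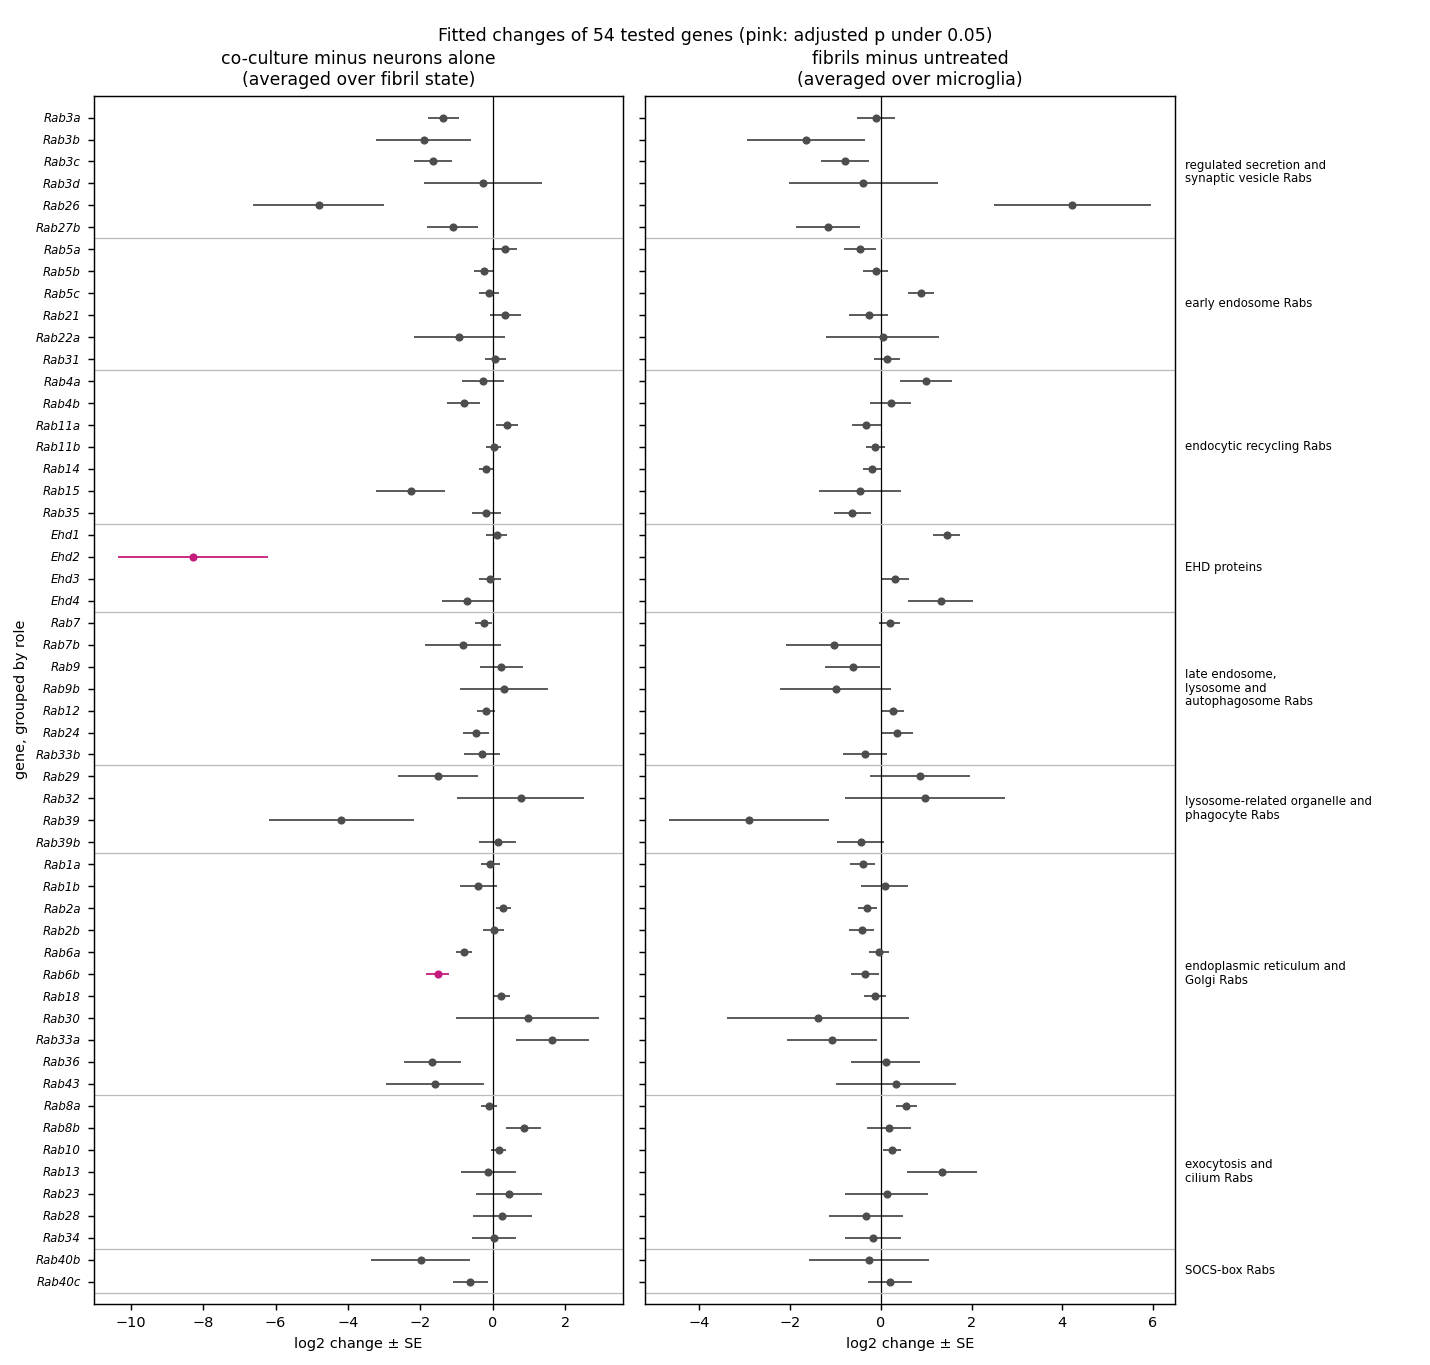
Log2 change of each tested member with microglia, averaged over fibril state (left), and with fibrils, averaged over microglia state (right), ordered by role, with bars for the SE and adjusted p under 0.05 in pink. Ehd2 is left out of the right panel because its co-cultures held 1 count, and its fitted value at the left depends on the prior count. Rab26, at 0 in all untreated co-cultures, and Rab39, at 0 in all loaded co-cultures, are kept, and their fitted values depend on it too. The 6 secretion Rabs all lie below 0 at the left, and Ehd1 has the smallest p at the right.

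Rabs of the endoplasmic reticulum and Golgi, Rab6b and Rab6a included, differed in direction. Of 11 tested, 5 were higher and 6 lower with microglia on average, with a median of -0.06. Rab2a, which acts between the endoplasmic reticulum and Golgi, was at 179 ± 23.9 and 133 ± 32.0 CPM in neurons alone without and with fibrils and 200 ± 34.8 and 178 ± 41.5 CPM in co-culture. Rab1a, which acts in the same step, was at 150 ± 25.9 and 95.3 ± 40.8 CPM alone and 120 ± 23.3 and 109 ± 39.1 CPM in co-culture. Rab18, of lipid droplets and the endoplasmic reticulum, was at 99.1 ± 22.3 and 92.7 ± 24.3 CPM alone and 120 ± 23.5 and 106 ± 32.7 CPM in co-culture (SD, n = 4 in each group). None of these 3 passed (edgeR adjusted p = 0.540, 0.965 and 0.718 for the averaged microglia contrast). The summed list was at 1880 ± 385 and 1511 ± 429 CPM alone and 1128 ± 223 and 1055 ± 228 CPM in co-culture, Rab6a and Rab6b included.

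No endosomal Rab was called with microglia. Of 6 tested early endosome Rabs 3 were higher and 3 lower (median -0.02), of 7 recycling Rabs 2 and 5 (median -0.19), and of 7 late endosome, lysosome and autophagosome Rabs 2 and 5 (median -0.26). Rab11a and Rab11b, of the recycling endosome, had averaged changes of 0.40 ± 0.31 and 0.02 ± 0.21 (adjusted p = 0.593 and 0.989), and Rab7, of late endosomes and lysosomes, of -0.26 ± 0.23 (adjusted p = 0.654). Rab15, which acts in endocytic recycling, was at 44.9 to 601 CPM in untreated neurons alone and 23.2 to 86.6 CPM in untreated co-cultures (averaged change -2.27 ± 0.95, adjusted p = 0.255).

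Rab14 was lower in untreated co-cultures, at 353, 265, 349 and 361 CPM, than in untreated neurons alone, at 647, 367, 418 and 542 CPM. Loaded neurons were at 370, 217, 371 and 372 CPM alone and 411, 391, 401 and 317 CPM in co-culture. Only the untreated groups were free of overlap, and the log2 change there was -0.57 ± 0.27 (edgeR adjusted p = 0.544). With microglia in loaded neurons it was 0.19 ± 0.27, and the difference between both, 0.76 ± 0.39, did not pass (adjusted p = 1).

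Rabs of exocytosis and the cilium numbered 7, of which 5 were higher and 2 lower with microglia on average (median 0.16). Rab10 was at 769, 369, 428 and 446 CPM in untreated neurons alone, 707, 443, 496 and 539 CPM in loaded neurons alone, 454, 490, 476 and 644 CPM in untreated co-cultures and 501, 811, 673 and 682 CPM in loaded co-cultures. All 4 groups overlapped, with an averaged change of 0.16 ± 0.20 (adjusted p = 0.783). The list named for lysosome-related organelles and phagocytes held 4 Rabs, Rab29, Rab32, Rab39 and Rab39b, of which 2 were higher and 2 lower (median -0.69). Its name is a loose one, since Rab29 is also a Golgi Rab and Rab20 is not in it. Both SOCS-box Rabs, Rab40b and Rab40c, which join ubiquitin ligase complexes, were lower (median -1.31). Rab40b was at 7.26 CPM or more in all 8 libraries of neurons alone and at 0 in 4 of the 8 co-cultures, with the others up to 9.99 CPM (adjusted p = 0.514). The 11 tested Rabs that Lrrk2 phosphorylates, a list that shares its Rab3 members with the secretion list, had 2 higher and 9 lower (median -0.28, none called). Their sum was 1468 ± 101 and 1363 ± 344 CPM in neurons alone without and with fibrils. In co-culture it was 1022 ± 139 and 1230 ± 180 CPM (SD, n = 4 each), free of overlap only without fibrils. In this contrast no list besides EHD proteins and the endoplasmic reticulum and Golgi Rabs held a called member.

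**Figure D4:**
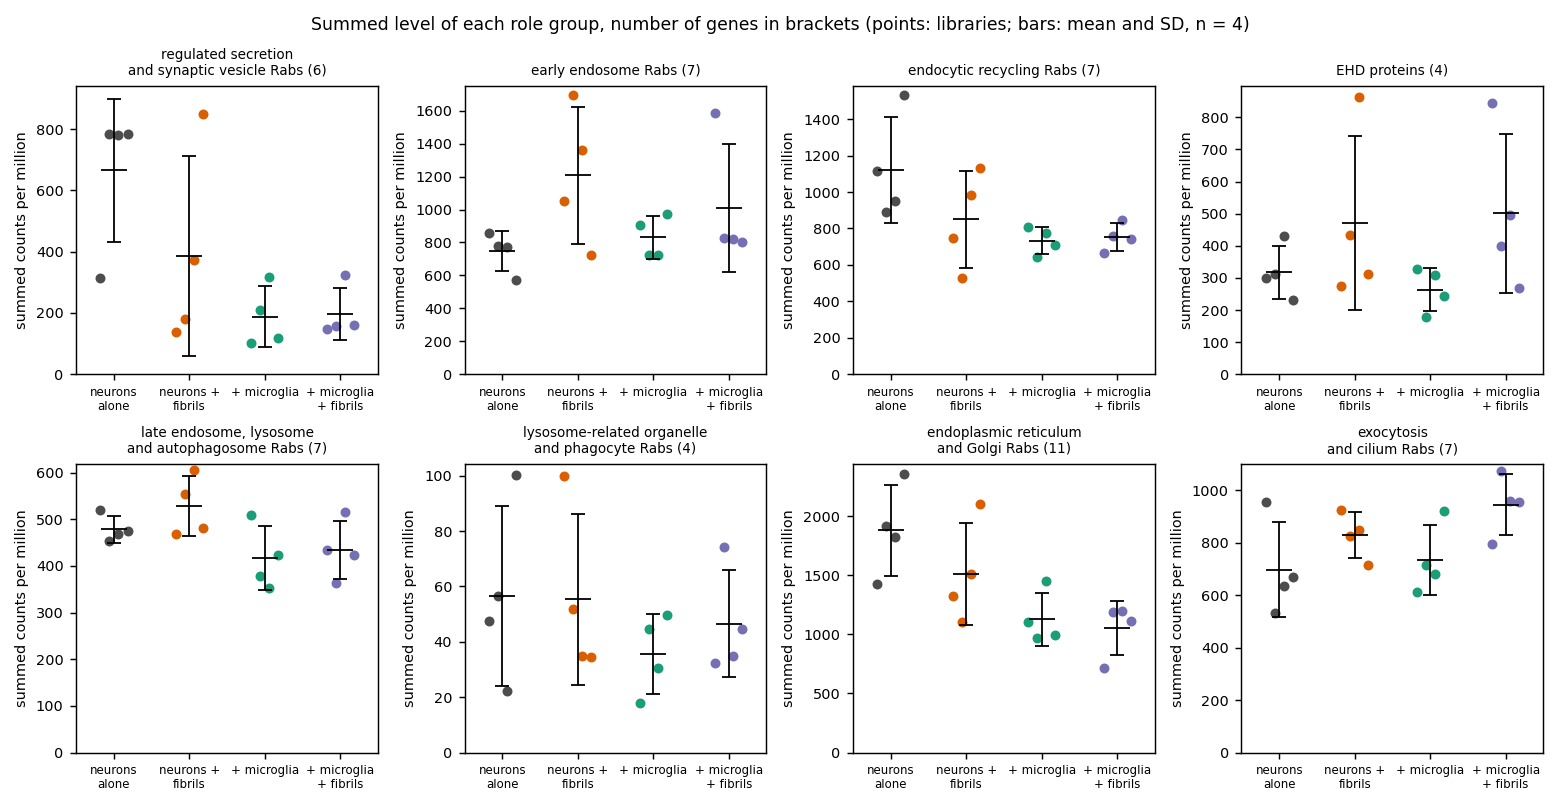
Summed CPM of the members of each role list, the SOCS-box Rabs left out, per library (points) with the mean and SD of each group (bars). The mean secretion, recycling, and endoplasmic reticulum and Golgi sums are lower in co-culture than in neurons alone, as are the late endosome and lysosome-related means. Without fibrils the secretion, recycling, and endoplasmic reticulum and Golgi means are 187, 734 and 1128 CPM against 666, 1122 and 1880 CPM. Of the lists shown, only the recycling sums are free of overlap there, at 645 to 809 CPM against 888 to 1533 CPM. Of the 7 recycling Rabs 3 are higher there and 4 lower. Rab14 (332 against 494 CPM) and Rab15 (48.0 against 264 CPM) are lower, and Rab11a (106 against 106 CPM) and Rab11b (161 against 133 CPM) are not.

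Fibrils gave no call in any gene. The member nearest the threshold was Ehd1, which drives receptor recycling from endosomes to the surface. It was at 67.5, 108, 80.1 and 29.9 CPM in untreated neurons alone and at 151, 238, 329 and 138 CPM in loaded neurons alone. In co-culture it was at 113, 63.5, 57.9 and 102 CPM without fibrils and at 344, 142, 224 and 129 CPM with them. Each of the 8 loaded libraries was above each of the 8 unloaded ones. No other gene of the 13139 tested was higher in this way (0.00761%, Ehd1 itself), and the non-overlapping genes in either direction numbered 2 (0.0152%). The averaged log2 change was 1.45 ± 0.30 (edgeR unadjusted p = 6.24e-05, adjusted p = 0.328), from a mean of 77.7 to one of 212 CPM. It was 1.58 ± 0.42 in neurons alone (adjusted p = 0.532) and 1.32 ± 0.42 in co-culture (adjusted p = 1), contrasts that share no library, and their difference was -0.27 ± 0.58. DESeq2 gave Ehd1 an adjusted p of 0.00112 for the averaged contrast and 0.0364 for neurons alone, while edgeR and limma-voom did not call it. DESeq2 called 1.97% and 1.33% of all genes in these contrasts.

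**Figure D5:**
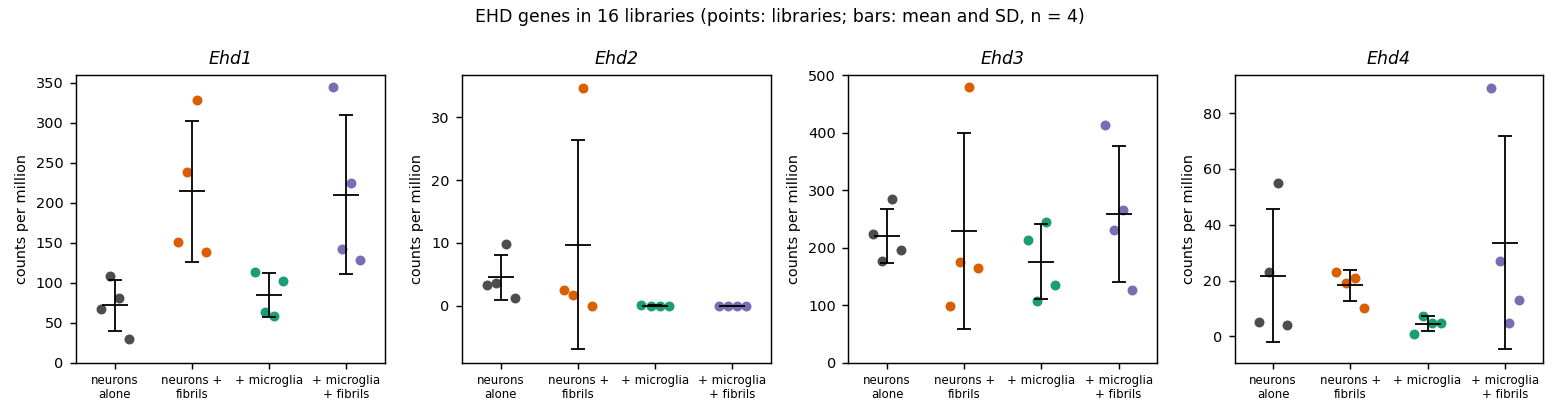
CPM of Ehd1 to Ehd4 per library (points) with the group mean and SD (bars). All 8 loaded libraries lie above all 8 unloaded libraries for Ehd1, and Ehd2 is at or near 0 in the co-cultures.

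For the other EHD genes, loaded and unloaded libraries overlapped. Ehd3, its close paralogue on early endosome tubules, was at 224, 177, 285 and 195 CPM in untreated neurons alone, 98.6, 174, 480 and 165 CPM in loaded neurons alone, 214, 106, 245 and 135 CPM in untreated co-cultures and 413, 230, 266 and 126 CPM in loaded co-cultures. Its groups overlapped throughout (averaged fibril change 0.31 ± 0.30, edgeR adjusted p = 0.997). Ehd4, which acts in endosomal transport, was at 5.27, 23.2, 54.9 and 3.96 CPM and at 23.0, 19.1, 20.9 and 10.3 CPM in neurons alone without and with fibrils. In co-culture it was at 0.872, 7.33, 4.83 and 4.92 CPM without fibrils and 89.1, 27.1, 4.95 and 12.9 CPM with them. The loaded co-cultures differed among themselves by more than 10-fold, and the change there was 2.90 ± 1.07 (adjusted p = 1). The interaction, the fibril change in co-culture minus that in neurons alone, was 3.15 ± 1.44 for Ehd4 (adjusted p = 1). With 1 library left out at a time the change was 1.73 to 3.27 and the interaction 1.98 to 3.52, both lowest when loaded co-culture replicate 1 was dropped. Dropping untreated replicate 3 of neurons alone took the interaction to 2.15.

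Rab5c and Rab8a had the next smallest p for fibrils in neurons alone. Rab5c was at 296, 482, 471 and 228 CPM in untreated and 530, 1145, 1099 and 397 CPM in loaded neurons alone, where only replicate 4 lay within the untreated range. In co-culture it was at 388, 411, 321 and 474 CPM without fibrils and 1280, 467, 466 and 324 CPM with them, where replicate 1 alone was high. The change was 1.10 ± 0.41 in neurons alone (edgeR adjusted p = 0.695) and 0.67 ± 0.40 in co-culture (adjusted p = 1). Replicate 1 of the loaded co-cultures was also the library with 1432 CPM of microglial transcripts, whose part in its Rab5c level was not tested. That library was the highest of its group for Ehd1 (344 CPM), Ehd3 (413 CPM) and Ehd4 (89.1 CPM) as well. Replicate 1 of the untreated co-cultures, also rich in these transcripts, was the highest of its group for Ehd1 (113 CPM) but not for Ehd3 or Ehd4. Their part in the EHD levels was not tested either. Rab8a, of exocytosis and cilium growth, was at 60.7, 84.3, 106 and 114 CPM in untreated and 124, 198, 230 and 121 CPM in loaded neurons alone, without overlap (0.88 ± 0.32, adjusted p = 0.695). In co-culture the values of 99.7, 89.5, 109 and 125 CPM without and 130, 107, 126 and 139 CPM with fibrils overlapped (0.25 ± 0.32, adjusted p = 1).

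In neurons alone, 0 members were called for fibrils, as 0% of all genes were. An unadjusted p under 0.05 was reached by 4 members (7.41%), against 6.92% of all genes, 909 in number. Ehd1, Rab8a and Rab5c were higher, as were 4.03% of all genes, and Rab14 lower, as were 2.89%. The groups did not overlap for 3 members (5.56%), against 4.18% of all genes, with Ehd1 and Rab8a higher (1.96% of all genes) and Rab27b lower (2.22%). The median was -0.24 for members (20 higher, 34 lower) and -0.06 for all genes. The endoplasmic reticulum and Golgi Rabs had 1 higher and 10 lower (median -0.49), none with an unadjusted p under 0.05. In co-culture 0 members were called against 0% of all genes, and 3 members (5.56%; Ehd1, Ehd4 and Rab26, all higher) had an unadjusted p under 0.05, against 3.68% of all genes, 483 in number, and 1.54% of all genes that were higher. Rab26 was at 0 in every untreated co-culture. Ehd1 was the 1 member without overlap (1.85%), against 1.94% of all genes and 0.906% that were higher. The member median was 0.12 (30 higher, 24 lower), and that of all genes was -0.04. With genes at 0 in a group set to their bound, the member median was 0.16. Ehd2 was left out of that median, because its single count in untreated co-cultures lay below the floor. All 7 exocytosis and cilium Rabs were higher (median 0.29), none with an unadjusted p under 0.05.

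Averaged over microglia state, 0 members were called (0% of all genes), and Ehd1, Rab5c, Rab8a and Rab26 had an unadjusted p under 0.05 and were higher (7.41%, against 6.62% of all genes in either direction, 870 in number, and 3.58% higher). The place of Rab26 rested on the untreated co-cultures, all at 0, so the size of its fitted change depends on the prior count. In neurons alone its change was 0.39 ± 2.34 (edgeR unadjusted p = 0.869). The fibril contrasts alone and in co-culture share no library. The direction was the same in both for 32 of 54 members (59.3%), against 55.3% of all genes. Ehd1 was the only member with an unadjusted p under 0.05 in both (1.85%, against 0.335% of all genes). The interaction called 0 members and 0% of all genes, and 2 members (3.70%; Rab26 and Ehd4, both above 0) had an unadjusted p under 0.05, against 4.03% of all genes, 529 in number, and 1.67% above 0.

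The regulators and partners of these proteins were read from lists that include genes outside the rule. In the averaged microglia contrast 1 of 36 tested exchange factors was called, Rin2, an exchange factor for Rab5, which rose by 1.65 ± 0.42 (edgeR adjusted p = 0.0390). Of all genes tested, 2.19% were called in this contrast, so a single call in lists of 36 to 44 genes is near the background. Its group means were 13.3 ± 7.19 and 38.5 ± 21.1 CPM in neurons alone without and with fibrils and 53.3 ± 29.7 and 94.5 ± 48.0 CPM in co-culture (SD, n = 4 each). Of 37 GTPase-activating proteins 1 was called, Evi5l, which rose by 1.12 ± 0.28 (adjusted p = 0.0367), from 64.2 ± 20.5 and 78.7 ± 33.6 CPM alone to 166 ± 60.8 and 144 ± 65.7 CPM in co-culture. Of 44 effectors 1 was called, Osbpl1a (ORP1L), a cholesterol sensor that binds Rab7 on late endosomes, which fell by 1.26 ± 0.28 on the log2 scale (adjusted p = 0.0159). Each of the 8 co-culture libraries, at 45.9 to 151 CPM, was below each of the 8 libraries of neurons alone, at 159 to 413 CPM. Such a separation held for 0.601% of all genes in either direction, with 29 of 13139 lower. For Rin2 and Evi5l the co-cultures and the neurons alone overlapped.

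No gene was called among the 11 prenylation and recycling factors (2 higher, 9 lower, median -0.32), the 13 EHD partners (3 and 10, median -0.21), the 16 retromer and sorting nexin genes (10 and 6, median 0.13) or the 4 tested Rab kinases and phosphatases (1 and 3, median -0.79). The genes with the smallest p in these lists were Rabac1, which binds prenylated Rabs (-0.61 ± 0.23, adjusted p = 0.177), Cav1, the main protein of caveolae (1.70 ± 0.83, adjusted p = 0.306), Snx1, a sorting nexin (0.96 ± 0.42, adjusted p = 0.250), and Ppm1h, the phosphatase that counteracts Lrrk2 on Rabs (-1.53 ± 0.74, adjusted p = 0.307). Cav1, which shares caveolae with Ehd2, was at 9.45 ± 6.81 and 5.94 ± 3.12 CPM alone and 27.7 ± 15.6 and 21.5 ± 9.70 CPM in co-culture, the opposite side to Ehd2 and not past the threshold. In the other 6 contrasts no gene of these 7 lists was called.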

How the data were processed

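The 16 libraries came from the QuantSeq 3′ forward kit, per the labels' protocols. The submitters' processing notes name STAR, Partek, DESeq2 and the build mm10. Versions, counting tool, strand setting, annotation and molecular identifiers are not given in the sources used here. Every test used the raw counts per gene that the authors deposited. A second deposited table holds a score, the authors' normalized values as whole numbers. Within a tolerance of 0.6, 99.97% of its values equalled a library constant times the count, and it was left out of the tests.

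Counts were fitted in R 4.3.3 with edgeR 4.0.16 (filterByExpr, minimum count 10 and total 15; TMM; robust quasi-likelihood) with 1 mean for each group, all 16 libraries in the fit, 7 contrasts and Benjamini-Hochberg adjustment over 13139 genes; called means an adjusted p under 0.05. The SE is the log2 change divided by the root of F. CPM use TMM-scaled library sizes. Depth was 6511516 to 13986374 counts per library, and intervals and floors (3 counts per library) cover counting error only. Groups came from the treatment label; replicate numbers follow accession order, and the labels do not say that they pair libraries. DESeq2 1.42.0, limma-voom (limma 3.58.1), other scalings, no filter, single groups, left-out libraries and a block were alternatives. The tests were also run on simulated counts, whose outcome is not reported here, and no result above rests on it. Python 3.11.15, pandas 2.3.3 and matplotlib 3.10.9 joined positions and drew plots; 46 of 55 members had a RefSeq promoter.

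Members, role and pathway lists, averaged contrasts and alternatives were chosen with earlier results of these data known. Any member could be named. Values per library were given for called members, Ehd1 to Ehd4, the 5 most abundant and the 3 with the smallest p in each contrast; of each pathway list, called genes or the 1 with the smallest p. Rab29 and Rab33a were added after their values were seen.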

Additional observations from a re-analysis of the deposited data

Results flagged for a closer look

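A library far from the other 3 of its group was found in 6 of 48 sets of 4 values (12 members in 4 groups). Chance gives about 1 in 20 for continuous values, a rate that need not hold for sets with values at 0. Ehd2 in loaded co-cultures and Rab26 in untreated co-cultures were at 0 throughout and could not be flagged. Ehd2 was at 34.7 CPM in replicate 3 of the loaded neurons alone, with the others at 0 to 2.49 CPM. Ehd2 was at 0.0793 CPM, a single count, in replicate 1 of the untreated co-cultures, with the others at 0. Rab14 was at 217 CPM in replicate 2 of the loaded neurons alone, with the others at 370 to 372 CPM, and at 265 CPM in replicate 2 of the untreated co-cultures, with the others at 349 to 361 CPM. Rab5c was at 1280 CPM in replicate 1 of the loaded co-cultures, against 324 to 467 CPM. Rab6b was at 307 CPM in replicate 1 of the untreated neurons alone, against 668 to 707 CPM.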

How the results depend on the processing

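No result reversed under the alternatives run. Of 157 values of named members under other settings 146 kept their direction and side of the threshold, as did 225 of 240 with 1 library left out. DESeq2 called more genes in every contrast. It called 1 member for fibrils in neurons alone (Ehd1; 1.85%, against 1.33% of all genes), 3 for microglia without fibrils (Rab6b, Rab3a, Rab26; 5.56% against 2.27%), 2 with fibrils (Ehd2, Rab33a; 3.70% against 3.78%), 5 for the averaged microglia contrast (Ehd2, Rab6b, Rab6a, Rab3a, Rab3c; 9.26% against 8.40%) and 1 for averaged fibrils (Ehd1; 1.85% against 1.97%). Limma-voom called 4 for averaged microglia, Rab6b, Ehd2, Rab6a and Rab40b (7.41% against 5.04%). Where Ehd2 is counted here, it had entered the rule through neurons alone only. Over all genes that contrast had 288 calls by edgeR, 1094 by DESeq2 and 662 by limma-voom; the cause was not tested. Without both libraries rich in microglial transcripts it held 0 members and 152 genes, from 2 fewer libraries.

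With 1 library left out, averaged microglia gave 1 to 3 members and the other contrasts 0 to 0. Rab6b was called in each of those 16 fits (adjusted p 0.00289 to 0.0356). Ehd2 had an adjusted p of 0.0339 to 0.102; Rab6a one of 0.0302 to 0.112, passing in 3 fits, without replicate 1 of the untreated neurons alone, replicate 2 of the loaded neurons alone or replicate 3 of the untreated co-cultures. DESeq2 size factors in edgeR also called Rab6a (adjusted p = 0.0446). Ehd1 for averaged fibrils had 0.0534 to 0.765. Library totals in place of TMM moved the averaged microglia median of all genes from -0.03 to 0.18 and the calls to 339 higher and 83 lower, against 160 and 128, with Rab6b and Ehd2 still the called members. Fitted on the groups of a contrast alone, each of the 4 simple contrasts called 0 members.

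The labels do not say whether replicate numbers pair libraries, and whether they do was not settled. Each number covers 1 run of neighbouring library codes in the titles, across all 4 groups. Correlations of deviations were -0.11 to 0.22 (median 0.043) for shared numbers and -0.23 to 0.16 (median -0.013) for different ones. For 10 of 16 libraries the mean correlation with libraries of other groups was highest for their own number. This is a hint from the data and not the design. With a replicate block the averaged microglia contrast called 2 members, Rab6b (adjusted p = 0.00883) and Rab3c, while Ehd2 had 0.0741. Members under 10 CPM rest on few counts and spread widely within a group, as Ehd2 did with 0 to 254 counts in loaded neurons alone. The part of depth in their missing calls was not tested.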
